A study of Homo sapiens with 6 samples.

Results

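The negative feedback genes of the mitogen-activated protein kinase (MAPK) pathway were examined in MDA-MB 231, an established human triple-negative breast cancer cell line. The 10 genes DUSP1, DUSP4, DUSP5, DUSP6, DUSP7, DUSP10, SPRY2, SPRY4, SPRED1 and SPRED2 were taken by their symbols from the 24462 symbols of the count tables, and all 10 had enough counts to be tested. RNA was harvested 48 h after transfection by lipofection from 3 groups of 2 libraries each. The first group received the negative control (NC) mimic, the second the miR-200a mimic (100 nM), and the third the miR-200a mimic (100 nM) together with an ELK3 expression plasmid (30 ng), and its libraries are called ELK3-labelled here. The labels name this plasmid both as pcDNA3.1-Flag-ELK3 and as pcDNA3.1 Hygro(+)-ELK3, and by the study's methods it holds the protein coding region alone. The labels name no empty plasmid for the other groups, so the addition of a plasmid and the addition of ELK3 cannot be told apart. The labels do not say that the libraries came from separate cultures, and a general statement on independent experiments in the study's methods asks for more of them than the 2 libraries a group here, so the p-values measure the spread between these libraries, which may be technical.

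Growth signals pass from receptors through RAS, RAF and MEK to the ERK kinases, which phosphorylate transcription factors such as the ternary complex factors, the family that includes ELK3. Among the genes that ERK signaling is known to switch on are its own inhibitors. The dual-specificity phosphatases (DUSPs) remove phosphate from MAP kinases, and the Sprouty (SPRY) and SPRED proteins act further upstream, at the level of RAS and RAF. Because their RNAs follow ERK signaling in many cells, DUSP4, DUSP6, SPRY2 and SPRY4 are widely used as a readout of it. The phosphorylation of ERK was not measured in these libraries, so the values below are RNA levels only.

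The mimic and its possible sites in these genes are shown first. The mature miR-200a-3p has 22 nt (RefSeq, GRCh38.p14, chr1:1167916-1167937, plus strand), and it shares its seed, bases 2 to 8, with miR-141-3p. The seed is in capitals.
hsa-miR-200a-3p: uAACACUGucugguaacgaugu
A match to this seed reads CAGTGTT in a target. In the longest 3′UTR of each gene (GENCODE release 29, GRCh38), 3 of the 10 genes held 1 or more matches, against 18.3% of 19133 protein-coding genes. The 3′UTRs of the 10 genes had 672 to 5585 bases, against a median of 1084 over all genes. A longer 3′UTR has more room for a match, and these shares were not adjusted for length. Each site is printed with flanks to 30 bases and the match in capitals.
DUSP1, chr5:172768240-172768246, minus strand, bases 516 to 522 of a 3′UTR of 672: atggaaaatacCAGTGTTgggttttttttt
DUSP6, chr12:89348725-89348731, minus strand, bases 523 to 529 of 2022: gaatcacttgaCAGTGTTtgtttgaattgt
SPRED2, chr2:65313264-65313270, minus strand, bases 231 to 237 of 2650: acacgctcgcaCAGTGTTctgaggaaggaa
SPRED2, chr2:65312525-65312531, minus strand, bases 970 to 976 of 2650: caaacacaaatCAGTGTTcccacgaacaag
None of the 4 matches is followed by an A, so none is of the 8-base type. The 3′UTRs of the other 7 genes hold 0 matches. The 3 genes with a match had log2 fold changes of 0.03 (DUSP1), -0.11 (DUSP6) and -0.02 (SPRED2) between miR-200a and the NC mimic, and none of them passed the test.

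The libraries held 3055915 to 4868004 counts, of which the 10 genes took 0.0600% to 0.141%. Levels are given as CPM, the counts per 1000000 counts of the library after TMM scaling. The assay, QuantSeq, reads each polyadenylated RNA near its 3′ end, so counts were not divided by transcript length. At these depths 3 counts, the smallest value taken as detectable, correspond to 0.611 to 0.979 CPM, and this floor covers counting error alone. The replicate ELK3-labelled libraries differed from each other by a root mean square of 0.56 on the log2 CPM scale over all tested genes, against 0.40 between the NC mimic replicates and 0.34 between those of miR-200a. Set against counting noise, their chi-square per degree of freedom was 13.4, against 2.38 and 1.90 for the other groups. ELK3 itself had 618 and 509 counts under the NC mimic, 493 and 505 under miR-200a and then 406 and 337 in the ELK3-labelled libraries. With edgeR, its log2 fold change was -0.56 for miR-200a over the NC mimic (adjusted p = 0.232), -0.79 for the third group over the NC mimic (adjusted p = 0.0117) and -0.23 for the third group over miR-200a (adjusted p = 0.354). The ELK3 counts were thus not higher where the plasmid had been added, and for that reason the group is named by its label. From quantitative RT-PCR and western blot in this cell line, the study reports that ELK3 mRNA and protein recovered to the control level with the plasmid. How reads of the plasmid transcript, which lacks the 3′UTR, were counted is not given in the sources used here. The counts therefore cannot show whether ELK3 from gene and plasmid together was restored. The mesenchymal markers VIM, CD44, SPARC, AXL and CAV1 summed to 3856 and 4143 CPM under the NC mimic, 3847 and 4036 under miR-200a and then 2621 to 3457 in the ELK3-labelled libraries, with CD44 the only 1 of the 5 that passed (lower, adjusted p = 0.0151 against miR-200a and 0.0181 against the NC mimic, edgeR). VIM made up most of this sum, with means of 2310, 2214 and 1405 CPM in the same order of groups. It had 1854 and 956 CPM in the ELK3-labelled replicates and did not pass. AXL went the other way, with means of 788, 767 and 896 CPM, and did not pass. The part of the lower mesenchymal sum in the results below was not tested. The luminal marker ESR1 and the fibroblast marker DCN had 0 counts in each of the 6 libraries. The luminal list (5 genes) summed to 53.5 to 61.9 CPM with the NC mimic, 85.4 to 89.1 with miR-200a and 68.4 to 83.7 in the third group, and the epithelial list (4 genes) to 189 to 208, 265 to 267 and 201 to 231 CPM. The leukocyte list (3 genes) summed to 19.3 to 19.6, 25.7 to 30.9 and 19.3 to 28.7 CPM, and the fibroblast list (3 genes) to 31.6 to 33.3, 33.8 to 46.3 and 23.3 to 27.7 CPM. Each of these last 4 sums came mostly from 1 gene. These were KRT19 (luminal, means of 52.2, 79.7 and 71.3 CPM), CLDN4 (epithelial, 186, 234 and 195), CD68 (leukocyte) and COL1A1 (fibroblast). Bulk RNA does not tell a change in every cell from a larger change in the cells that took up the mimic or plasmid.

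In the ELK3-labelled libraries 4 of the 10 inhibitors, DUSP1, DUSP5, DUSP6 and SPRY2, were lower against both other groups, by 1.74- to 3.06-fold. Of all tested genes, 5.91% were lower against miR-200a and 5.95% against the NC mimic. The share lower against both was not counted, and both comparisons use the same ELK3-labelled libraries. DUSP4 and SPRY4 passed the test only against miR-200a, and DUSP10 only against the NC mimic. DUSP7, SPRED1 and SPRED2 passed in neither comparison, and none of the 10 genes was higher in either. Together the 10 genes summed to 1250 and 1250 CPM under the NC mimic, 1394 and 1388 under miR-200a and then 887 and 613 in the third group.

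**Figure D1:**
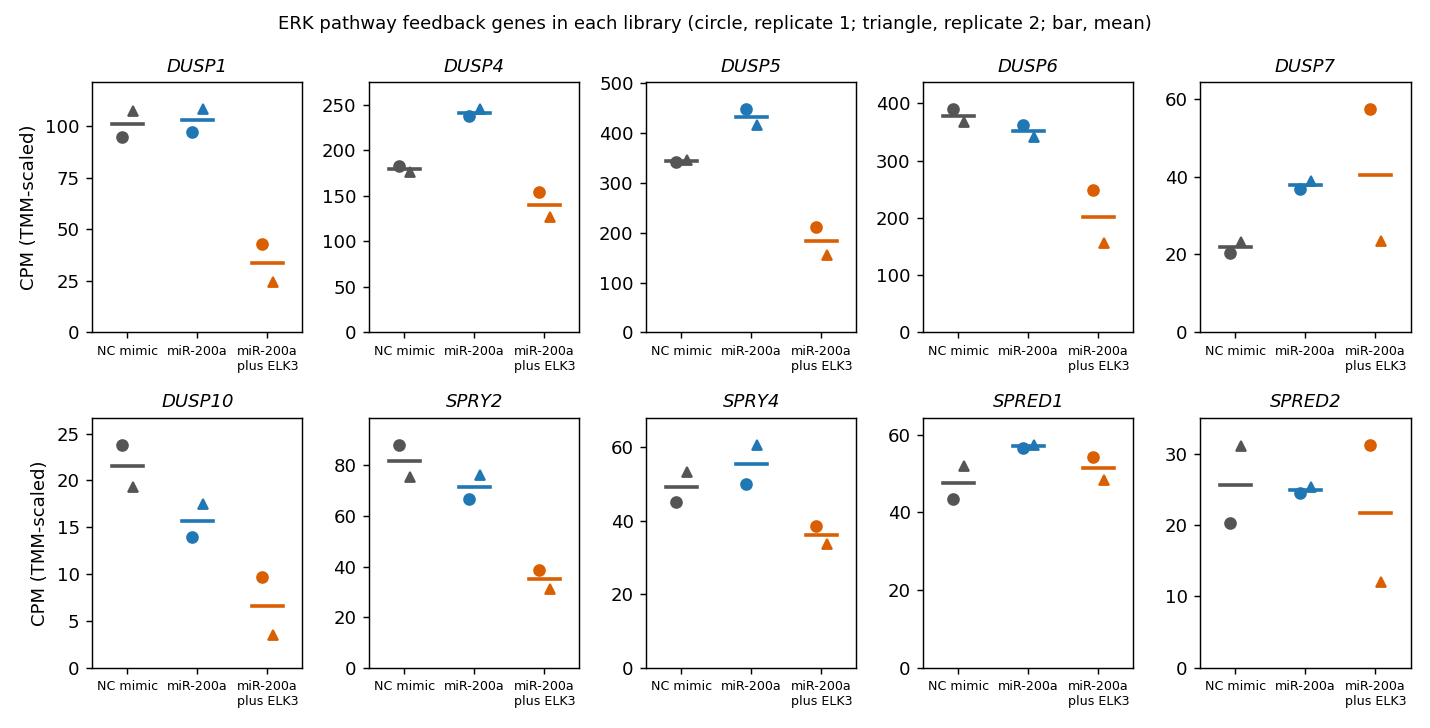
Level of each of the 10 feedback genes in each of the 6 libraries, in CPM after TMM scaling, on linear axes from 0. Circles are replicate 1, triangles replicate 2 and bars the mean of 2 libraries; for DUSP1, DUSP4, DUSP5, DUSP6, DUSP10, SPRY2 and SPRY4 both ELK3-labelled libraries lie below the 4 others.

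Against miR-200a, 6 of the 10 genes were lower and 0 higher in the ELK3-labelled libraries at an adjusted p under 0.05 (edgeR's quasi-likelihood test over 12650 genes), where 5.91% of all tested genes were lower and 7.03% higher. Against the NC mimic, 5 were lower and 0 higher, where 5.95% of all tested genes were lower and 6.92% higher. With upper-quartile scaling the same 6 and 5 genes were lower, although the balance over all genes moved from 889 higher and 748 lower to 622 and 882 in the first comparison, and from 876 and 753 to 677 and 902 in the second. The median log2 fold change of the 10 genes was -0.79 against miR-200a and -0.67 against the NC mimic, and that of all tested genes was 0.02 and 0.01. In 7 of the 10 genes both ELK3-labelled libraries were below the 4 others, a pattern found in 19.3% of all tested genes. The number of genes called changed when a library was left out. Without miR-200a replicate 1 or 2, 0 genes passed against miR-200a with edgeR (7 and 5 at an unadjusted p under 0.05). Without NC mimic replicate 1, 0 passed against the NC mimic (6 at an unadjusted p under 0.05), and without NC mimic replicate 2 only SPRY2 did. When an ELK3-labelled library was left out, DUSP7 and SPRED2 changed direction against miR-200a. Their log2 fold changes were -0.70 and -1.06 without replicate 1, and 0.57 and 0.30 without replicate 2. In these fits the single library is assumed to vary like the other groups. With all 6 libraries, 7 of the 10 genes and 3867 of all 12650 had an unadjusted p under 0.05 against miR-200a (edgeR). Against the NC mimic these numbers were 8 and 3873. The matching numbers over all genes for the fits with a library left out are not given here. With all 6 libraries, DESeq2 passed 6 and 5 genes, with DUSP10 in place of SPRY4 among the 6 against miR-200a.

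**Figure D2:**
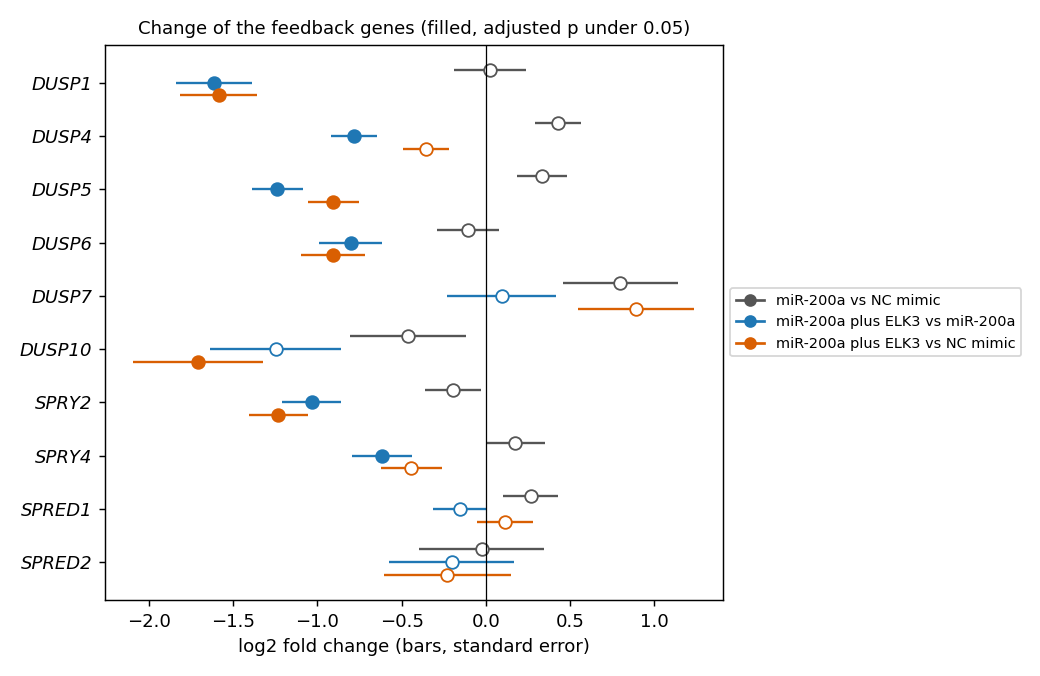
Log2 fold change of each feedback gene in the 3 comparisons, with bars of 1 standard error from the model of all 6 libraries. Filled points passed the adjusted p of 0.05; the filled points, 6 against miR-200a and 5 against the NC mimic, all lie below 0.

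With the NC mimic, DUSP6 (379 CPM) and DUSP5 (343 CPM) had the highest levels, followed by DUSP4 (179), DUSP1 (101), SPRY2 (81.8), SPRY4 (49.2), SPRED1 (47.7), SPRED2 (25.6), DUSP7 (21.8) and DUSP10 (21.5). SPRY4 and SPRED1 overlapped between replicates, as did SPRED2, DUSP7 and DUSP10, so neither set can be ordered.

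DUSP1 (GRCh38, chr5:172768090-172771195, minus strand) encodes a nuclear phosphatase that acts on ERK, JNK and p38 and is known as an immediate-early gene. It had 427 and 329 counts under the NC mimic, 469 and 532 under miR-200a and then 181 and 104 in the ELK3-labelled libraries. Its level was 101 ± 8.67 CPM (SD, n = 2) with the NC mimic, 103 ± 7.80 with miR-200a and 33.7 ± 13.0 in the third group. The NC mimic and miR-200a groups overlapped, and both libraries of the third lay far below them. DUSP1 was 3.06-fold lower against miR-200a (log2 fold change -1.61, standard error (SE) 0.23, adjusted p = 0.00348, edgeR) and nearly as much lower than with the NC mimic (-1.59, SE 0.23, adjusted p = 0.00309). In the annotation, the 3′ end of DUSP1 overlaps AC022217.3 on the opposite strand, and whether counting used the strand is not given in the sources used here. DUSP6, SPRY4 and SPRED2 also overlap other annotated genes, away from their 3′ ends.

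The promoter of DUSP1 is printed because it belongs to the gene with the largest fold change of the 10 against miR-200a, and it was the only window found for the 7 genes lower in either comparison that held a motif searched. It runs from 250 bases before the start of the gene to 50 after it (RefSeq, GRCh38.p14, chr5:172771146-172771445, minus strand). The capitals mark TGACGTCA, the cAMP response element, 125 bases before the start.
DUSP1 promoter: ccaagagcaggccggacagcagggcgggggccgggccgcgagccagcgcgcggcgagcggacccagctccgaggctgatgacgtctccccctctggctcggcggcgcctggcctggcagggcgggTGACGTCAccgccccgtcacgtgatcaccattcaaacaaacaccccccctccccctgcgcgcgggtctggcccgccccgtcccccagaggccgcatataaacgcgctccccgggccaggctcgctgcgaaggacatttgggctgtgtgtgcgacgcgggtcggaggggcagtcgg
TGACGTCA was found in 1.85% of 35116 promoter windows of this length. The AP-1 site (TGACTCA or TGAGTCA), a motif of the ETS family to which ELK3 belongs (CCGGAAG) and the CArG box of the serum response factor were searched in the same way on both strands, and 4.95%, 10.3% and 1.29% of all windows held them. Windows were found for 8 of the 10 genes, 12 in all, and not for DUSP4 and DUSP5. Besides DUSP1, only 1 of the 2 windows of SPRED2 held a match, to TGACTCA, which begins 6 bases before the start.

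DUSP5 (GRCh38, chr10:110497838-110511544, plus strand), a nuclear phosphatase selective for ERK, had 1532 and 1059 counts under the NC mimic, 2159 and 2045 under miR-200a and then 895 and 659 in the ELK3-labelled libraries. Its level was 343 ± 3.09 CPM (SD, n = 2), 432 ± 22.3 and 183 ± 40.4 in the same order. The 3 groups did not overlap, with miR-200a highest. DUSP5 was 2.36-fold lower against miR-200a (log2 fold change -1.24, SE 0.15, adjusted p = 0.00236, edgeR) and 1.87-fold lower against the NC mimic (-0.90, SE 0.15, adjusted p = 0.00633).

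DUSP6 (GRCh38, chr12:89347232-89353271, minus strand) encodes the cytoplasmic phosphatase that is selective for ERK and is the most used of these readouts. Its counts were 1751 and 1126 under the NC mimic, 1744 and 1679 under miR-200a and then 1049 and 662 in the third group. This corresponds to 379 ± 15.9 CPM (SD, n = 2), 352 ± 14.1 and 202 ± 65.7. The replicates of the third group differed from each other by 0.68 on the log2 scale, and both were below the 4 other libraries. DUSP6 was 1.74-fold lower against miR-200a (log2 fold change -0.80, SE 0.19, adjusted p = 0.0231, edgeR) and 1.88-fold lower against the NC mimic (-0.91, SE 0.19, adjusted p = 0.0145). Fitted without the NC mimic group, DUSP6 against miR-200a had an adjusted p of 0.0681.

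DUSP4, a nuclear phosphatase of ERK and JNK, had its groups in the same order as DUSP5. Its counts were 818 and 539, then 1142 and 1203, then 652 and 537, or 179 ± 4.45, 241 ± 5.67 and 140.3 ± 19.9 CPM (SD, n = 2). The 3 groups did not overlap. Against miR-200a, DUSP4 was 1.72-fold lower (log2 fold change -0.78, SE 0.14, adjusted p = 0.00791, edgeR). Against the NC mimic it did not pass (-0.35, SE 0.14, adjusted p = 0.112).

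DUSP10 (GRCh38, chr1:221701424-221742176, minus strand) acts mainly on JNK and p38 rather than on ERK, and it had the lowest mean level over the 6 libraries of the 10 genes (14.6 CPM). It had 107 and 59 counts under the NC mimic, 67 and 86 under miR-200a and then 41 and 15 in the ELK3-labelled libraries, where its replicates differed by 1.46 on the log2 CPM scale. Its level was 21.5 ± 3.24, 15.7 ± 2.55 and 6.62 ± 4.37 CPM (SD, n = 2). DUSP10 was 3.27-fold lower in the third group than with the NC mimic (log2 fold change -1.71, SE 0.39, adjusted p = 0.0205, edgeR), and fitted without the miR-200a group this adjusted p was 0.0530. Against miR-200a its log2 fold change was -1.25 (SE 0.39, adjusted p = 0.0595), with an adjusted p of 0.0352 with DESeq2.

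DUSP7 (GRCh38, chr3:52048919-52056550, minus strand), a cytoplasmic phosphatase of ERK, passed in no comparison. It had 92 and 71 counts under the NC mimic, 177 and 191 under miR-200a and then 242 and 100 in the third group, or 20.5 and 23.2, 36.7 and 38.9, and 57.3 and 23.5 CPM. The replicates of the third group lay above and below both miR-200a libraries. Its log2 fold change was 0.09 against miR-200a (95% interval -0.62 to 0.81, adjusted p = 0.871) and 0.89 against the NC mimic (95% interval 0.13 to 1.66, adjusted p = 0.111, edgeR). The direction against miR-200a depended on the library, with -0.70 (adjusted p = 0.00790) without replicate 1 and 0.57 (adjusted p = 0.0139) without replicate 2 of the ELK3-labelled libraries.

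Both Sprouty genes were lower in the ELK3-labelled libraries than under miR-200a, and SPRY2 was also lower than under the NC mimic. SPRY2 (GRCh38, chr13:80335976-80340951, minus strand), an inhibitor that acts between receptor tyrosine kinases and RAS, had 396 and 231 counts under the NC mimic, 322 and 374 under miR-200a and then 163 and 133 in the third group. Its level was 81.8 ± 9.06, 71.5 ± 6.61 and 34.9 ± 5.19 CPM (SD, n = 2). The replicates of the third group were close to each other and the first 2 groups overlapped. SPRY2 was 2.05-fold lower against miR-200a (log2 fold change -1.03, SE 0.17, adjusted p = 0.00705, edgeR) and 2.35-fold lower against the NC mimic (-1.23, SE 0.18, adjusted p = 0.00294).

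SPRY4 (GRCh38, chr5:142310427-142326455, minus strand), which also restrains signaling from receptors to RAS and RAF, had 203 and 163 counts, then 241 and 298, then 163 and 143 in the same order of groups. Its level was 49.2 ± 5.64, 55.4 ± 7.55 and 36.1 ± 3.53 CPM (SD, n = 2), with the third group below the 4 other libraries. SPRY4 was 1.53-fold lower against miR-200a (log2 fold change -0.62, SE 0.18, adjusted p = 0.0481, edgeR). This call was close to the threshold and was lost with DESeq2 (adjusted p = 0.0680) and when the NC mimic group was left out of the model (adjusted p = 0.0977). Against the NC mimic its log2 fold change was -0.44 (SE 0.18, adjusted p = 0.133).

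The SPRED genes, whose proteins bring the RAS inactivator neurofibromin to the membrane, passed in no comparison with all 6 libraries. SPRED1 (GRCh38, chr15:38252326-38357249, plus strand) had 195 and 159 counts under the NC mimic, 273 and 282 under miR-200a and then 229 and 206 in the third group, or 43.4 and 51.9, 56.7 and 57.5, and 54.2 and 48.4 CPM. Its log2 fold change was -0.15 against miR-200a (95% interval -0.51 to 0.21) and 0.11 against the NC mimic (95% interval -0.25 to 0.48), so changes of the size seen in SPRY2 lay outside both intervals. SPRED2 (GRCh38, chr2:65310851-65432637, minus strand) had 91 and 95, 118 and 124, and 132 and 51 counts, and the last pair, 31.3 and 12.0 CPM, enclosed the 4 other libraries. Its log2 fold change was -0.20 against miR-200a (95% interval -1.03 to 0.62) and -0.23 against the NC mimic (95% interval -1.07 to 0.61), intervals that hold changes of the size seen in DUSP6. Without replicate 1 of the ELK3-labelled libraries, SPRED2 was lower against both (log2 fold changes of -1.06 and -1.06, adjusted p of 0.00249 and 0.00310), and without replicate 2 these values were 0.30 and 0.31. The differences between the genes' changes were not tested.

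With miR-200a alone, none of the 10 genes passed against the NC mimic (edgeR with all 6 libraries, 0 with DESeq2), where 0.269% of all tested genes were called. At an unadjusted p under 0.05 there were 3 of the 10 genes and 1169 of all 12650 tested genes (edgeR). The 3 genes were DUSP4, DUSP5 and DUSP7. DUSP7 was 1.74-fold higher with miR-200a (log2 fold change 0.80, SE 0.34, adjusted p = 0.521, edgeR), DUSP4 1.35-fold (0.43, SE 0.13, adjusted p = 0.321) and DUSP5 1.26-fold (0.33, SE 0.15, adjusted p = 0.538). The share of all tested genes whose groups did not overlap in this comparison was not counted. Both miR-200a libraries were below both NC mimic libraries in DUSP6 and DUSP10, and above them in SPRED1 and in these 3 genes. When the ELK3-labelled group was left out of the model, the same 3 genes passed with adjusted p of 0.00161, 0.000175 and 0.000614, where 7.89% of 12460 genes were called, and they also passed when either ELK3-labelled library was left out alone. Without the count filter, DUSP7 passed (adjusted p = 0.0304). The remaining 7 genes had log2 fold changes of -0.46 (DUSP10) to 0.27 (SPRED1). The comparisons share libraries, so their values are given side by side and not combined.

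The wider pathway was read from lists chosen with earlier results of these data known. Of 11 other feedback genes, 9 were tested, and ERRFI1 and IL17RD were lower in the ELK3-labelled libraries against both other groups, where 12.9% of all tested genes were called in either direction in each comparison. ERRFI1 encodes MIG6, an inhibitor of the epidermal growth factor receptor, and IL17RD encodes SEF, an inhibitor of signaling through ERK. ERRFI1 had 462 and 491 CPM under the NC mimic, 440.2 and 451 under miR-200a and then 263 and 199.5 in the third group, and it was 1.93-fold lower against miR-200a (adjusted p = 0.00446, edgeR) and 2.06-fold lower against the NC mimic (adjusted p = 0.00243). IL17RD was 2.24-fold lower (adjusted p = 0.00599) and 1.69-fold lower (adjusted p = 0.0307), and the second call was lost under 7 of 13 alternatives, DESeq2 among them. The other 7, which include DUSP14, DUSP16 and SPRY1, did not pass, and the 9 genes had a median log2 fold change of 0.04 against miR-200a and -0.12 against the NC mimic.

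**Figure D3:**
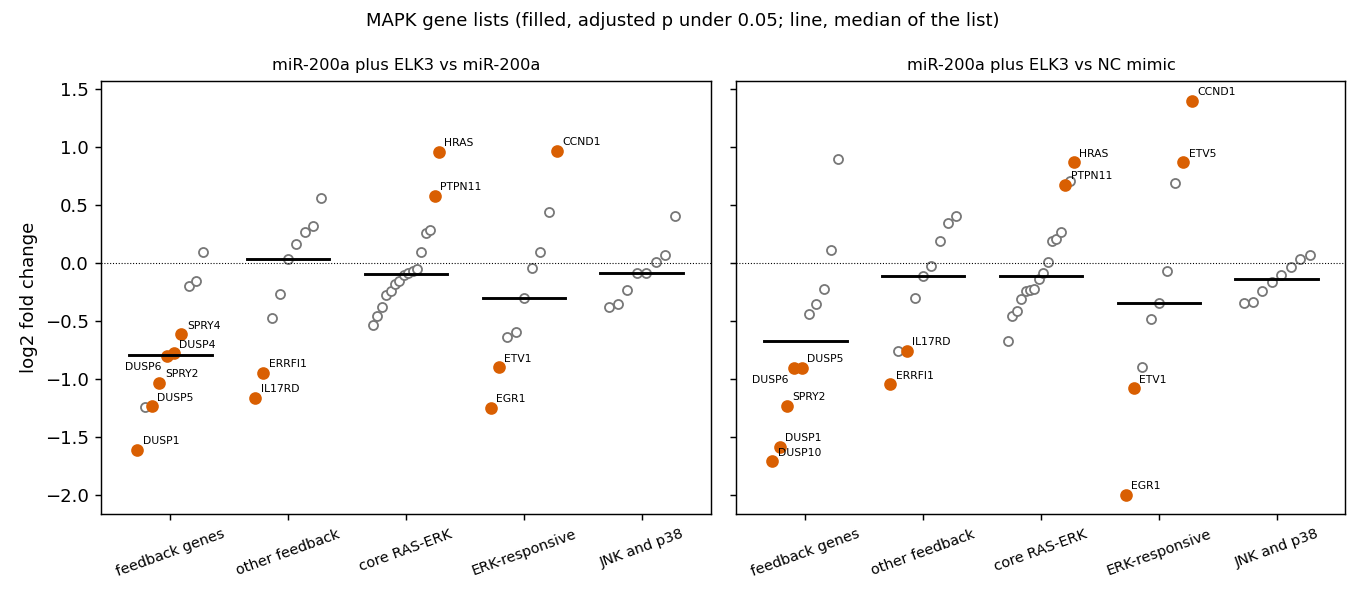
Log2 fold change of the tested genes of 5 MAPK gene lists in the ELK3-labelled libraries, against miR-200a (left) and the NC mimic (right). Filled, named points passed the adjusted p of 0.05 and lines are list medians; the feedback genes have the lowest medians, -0.79 and -0.67, while HRAS, PTPN11 and CCND1 lie above 0 in both panels.

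Of the core cascade, all 16 genes read here were tested, and 2 of them, HRAS and PTPN11, passed in both comparisons of the ELK3-labelled libraries, both higher, a share close to the 12.9% of all tested genes called in each. HRAS, a RAS protein, had 48.8 and 39.8 CPM under the NC mimic, 43.8 and 39.9 under miR-200a and then 65.6 and 97.1 in the third group, and was 1.94-fold higher against miR-200a (adjusted p = 0.0170, edgeR) and 1.83-fold higher against the NC mimic (adjusted p = 0.0249). Each HRAS call was lost under 5 of 13 alternatives, the model of the compared groups alone among them (adjusted p of 0.0523 and 0.0646). PTPN11, the phosphatase SHP2, which promotes RAS activation, had log2 fold changes of 0.58 (adjusted p = 0.0497) and 0.67 (adjusted p = 0.0312), and the first call was lost under 10 of 13 alternatives and the second under 6. The 8 tested genes of the JNK and p38 cascade did not pass in any comparison (edgeR). In the ELK3-labelled group their log2 fold changes were -0.38 to 0.41 against miR-200a and -0.35 to 0.07 against the NC mimic, and the smallest adjusted p was 0.0852, for the p38 kinase MAPK13 against the NC mimic.

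Of 10 other transcripts known to respond to ERK, 9 were tested. In the ELK3-labelled libraries 3 of them passed against miR-200a (1 higher, 2 lower) and 4 against the NC mimic (2 higher, 2 lower), where 12.9% of all tested genes were called in each comparison, and 1 passed for miR-200a alone, where 0.269% were. EGR1, an immediate-early transcription factor, fell from 849 and 854 CPM with the NC mimic to 491 and 520.0 under miR-200a and to 215 and 211 in the ELK3-labelled libraries, and it passed in each of the 3 comparisons, with log2 fold changes of -0.75 for miR-200a against the NC mimic (adjusted p = 0.0289, edgeR) and -1.25 for the third group against miR-200a (adjusted p = 0.000389), and an adjusted p of 2.72e-05 for the third group against the NC mimic. ETV1, an ETS transcription factor, was lower in the third group against both (log2 fold changes of -0.90 and -1.08, adjusted p of 0.0231 and 0.0117), and the first call was lost under 5 of 13 alternatives, the model of the compared groups alone among them. CCND1, which encodes cyclin D1, changed the other way, with 247 and 256 CPM under the NC mimic, 338 and 339.9 under miR-200a and then 633 and 693 in the third group. It was 1.96-fold higher against miR-200a (adjusted p = 0.00181) and 2.64-fold higher against the NC mimic (adjusted p = 0.000190). ETV5, another ETS factor, was 1.83-fold higher against the NC mimic (adjusted p = 0.0117) and did not pass against miR-200a (log2 fold change 0.44, adjusted p = 0.104). With all 6 libraries, EGR1 was the only gene of the 4 pathway lists that passed for miR-200a alone. Without any 1 of the 4 libraries compared, EGR1 did not pass. When the ELK3-labelled group was left out of the model, CCND1 and ETV5 also passed, both higher with miR-200a, where 7.89% of 12460 genes were called. Listed genes called in no comparison were not read one by one under the alternatives. In the ELK3-labelled group, EGR1 in both comparisons and CCND1 against the NC mimic passed under all 13 alternatives. The other calls of listed genes in that group were lost when either library of the group compared with it was left out. PHLDA1, EPHA2, ETV4, FOSL1 and IER3 did not pass in any comparison, and EPHA2 had 670 and 124 counts in the replicates of the third group.

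**Figure D4:**
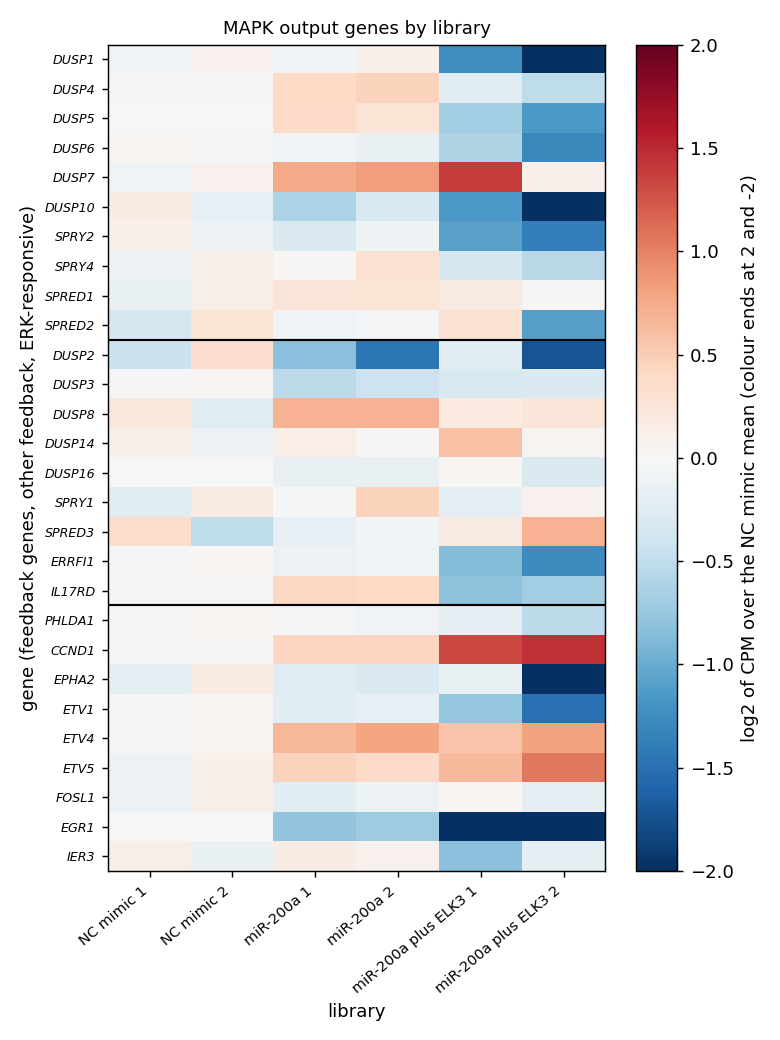
Level of the 10 feedback genes (top), 9 other feedback genes (middle) and 9 ERK-responsive genes (bottom) in each library, as the log2 of CPM over the mean of the NC mimic libraries; blue is lower, red is higher and colours end at 2 and -2. For the genes called against the NC mimic, the ELK3-labelled columns are blue for DUSP1, DUSP5, DUSP6, DUSP10, SPRY2, ERRFI1, IL17RD, ETV1 and EGR1 and red for CCND1 and ETV5. Rows not called in that comparison can also share a colour in both columns, such as ETV4 (red) and SPRY4 (blue).

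Genes outside the list were ranked by the likeness of their log2 CPM over the 6 libraries to that of DUSP6. Among 9927 genes with a mean log2 CPM above 3, the highest Pearson correlations were those of PHF1, GMPR, UBALD2, SNX14 and ID3, from 0.998 to 0.997. They follow the 6 values of DUSP6 closely, for example PHF1 with 44.5 and 43.4 CPM under the NC mimic, 40.9 and 39.9 under miR-200a and then 25.3 and 14.8 in the third group. With 6 libraries that share their group structure and depth, 741 genes had a correlation above 0.9, so these values are a description of rank only. Within the 10 genes, the correlation with DUSP6 was 0.98 for DUSP10, 0.97 for DUSP1, 0.95 for SPRY2, 0.92 for DUSP5, 0.82 for SPRY4, 0.79 for DUSP4 and 0.66 for SPRED2, and it was 0.11 for SPRED1 and -0.06 for DUSP7.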

How the data were processed

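For 6 QuantSeq 3′ mRNA libraries the authors deposited tables of whole-number counts, 1 a library, that had not been normalized. The submitters' processing notes name Bowtie2, edgeR and hg19, and the counting program and annotation are not given in the sources used here. Each table holds 25737 lines and 24462 symbols, and lines of the same symbol were summed (286 symbols, none of them one of the 10 genes). In R 4.3.3, edgeR 4.0.16 was run with TMM scaling, a filter of 10 counts (filterByExpr, 12650 genes kept), all 6 libraries in a model of 3 groups and the quasi-likelihood test, with Benjamini-Hochberg adjustment over all tested genes and a threshold of 0.05. The standard error is the log2 fold change over the root of the F statistic. Alternatives were DESeq2 1.42.0, upper-quartile scaling, no filter or at least 10 counts in each library, a model of the compared groups alone, the replicate number as a block, and leaving out each library in turn. The fit was tested on simulated data with the same spread in all 3 groups. That test does not cover the wider spread between the ELK3-labelled replicates. The rule for named genes took the 10 feedback genes, ELK3, the called genes of 4 pathway lists (at most 6 a list) and the 5 genes most like DUSP6. Other listed genes and markers that are named (among them MAPK13, EPHA2 and CD44) were chosen after their values were seen. The 10 genes, the lists and the tests were chosen with earlier results of these data known. GENCODE release 29 and RefSeq (GRCh38) were used for positions and sequences, not for counting. Some genes of the core cascade list are not reported here.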

Additional observations from a re-analysis of the deposited data

How the results depend on the processing

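The number of feedback genes called under miR-200a against the NC mimic, 0 with all 6 libraries, was 1 without the count filter, 3 with the third group left out of the model, and 0 to 3 with a library left out. Against miR-200a, 0 to 9 were called in the ELK3-labelled group with a library left out, and against the NC mimic 0 to 8. Over all genes, the 34 calls between miR-200a and the NC mimic became 88 with DESeq2, 230 without the filter, 983 with the compared groups alone and 0 to 1010 with a library left out. The calls of the ELK3-labelled group became 2490 and 2525 (against miR-200a and the NC mimic) without the filter, 542 and 587 with the compared groups alone, and 31 to 4684 and 96 to 4675 with a library left out. The log2 fold change of ELK3 for miR-200a over the NC mimic passed with the compared groups alone (-0.54) and without replicate 1 or 2 of the ELK3-labelled group (adjusted p of 0.000290 and 0.000220, edgeR), and it ranged from -0.69 to -0.42 with a library left out. For the ELK3-labelled group it ranged from -0.38 to -0.13 against miR-200a, passing without replicate 1 of that group (adjusted p = 0.0189, edgeR), and from -0.92 to -0.65 against the NC mimic, not passing without NC mimic replicate 1 (0.0691) or 2 (0.159). Values that changed sign were all of results not called with all 6 libraries. Between miR-200a and the NC mimic, when a library was left out, they were DUSP1 (-0.060 to 0.11), SPRED2 (-0.32 to 0.30) and HRAS (-0.22 to 0.074), and SPRED2 was 0.0071 with the compared groups alone. For the ELK3-labelled group they were DUSP7 (-0.70 to 0.57) and SPRED2 (-1.06 to 0.30) against miR-200a, and SPRED1 (-0.014 to 0.24) and SPRED2 (-1.06 to 0.31) against the NC mimic. The cause of these shifts was not tested.

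Libraries of the same replicate number did not deviate together (correlations of -0.003, -0.04 and -0.11), so no strong effect shared by replicate number was seen. With 2 libraries a group, these values cannot show whether libraries of the same number were prepared together. With the replicate number as a block, 0, 5 and 5 feedback genes were called, and 13 genes in all between miR-200a and the NC mimic. Under this block the calls of SPRY4 against miR-200a (adjusted p = 0.0733), EGR1 between miR-200a and the NC mimic (0.0834), IL17RD against the NC mimic (0.0536) and PTPN11 in both comparisons (0.0786 and 0.0525) were lost (edgeR). With the numbers of the ELK3-labelled group crossed, an alternative chosen after seeing the data, 0, 6 and 5 feedback genes and 22, 1644 and 1661 genes in all were called, and SPRED2 turned to 0.000925 between miR-200a and the NC mimic.

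The counts fell to 15 for DUSP10, 51 for SPRED2 and 71 for DUSP7 in a library, and in the ELK3-labelled group the replicates of these genes differed by 1.46, 1.38 and 1.29 on the log2 CPM scale.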
